A study of Mus musculus with 18 samples.

Results

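K19R embryoid bodies at day 10 were compared with FLAG-WT embryoid bodies at day 6, to ask whether cells with mutant EED run late on the wildtype course or along another one. The comparison takes 4 of the 18 libraries of the series, 2 per group, chosen by genotype and day from the labels, and covers every gene in the count table. Both groups are knock-in mouse embryonic stem cell (mESC) lines whose Eed carries a FLAG tag, with the wildtype sequence in FLAG-WT and a lysine-to-arginine change in K19R. Both had been kept as mESCs with leukemia inhibitory factor (LIF) and 2 inhibitors (2i, of MEK1/2 and of GSK3), and were then differentiated as aggregates in suspension without LIF and 2i. FLAG-WT was sampled after 6 days of that and K19R after 10. The same lines at days 0 (mESCs in LIF and 2i), 2, 6 and 10 give 16 FLAG-EED libraries in 8 groups of 2, and a further pair of untagged wildtype mESC libraries in LIF was not used. Genotype and day differ together between the groups, so their parts in a difference cannot be told apart from this contrast alone. How many clones stand behind each line, and whether the 2 replicates are independent cultures, is not stated. The p-values therefore describe sample-to-sample spread alone, and that spread may be technical.

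EED is the subunit of Polycomb repressive complex 2 (PRC2) that binds methylated histone H3 lysine 27 and boosts the enzyme subunit EZH2, which writes that mark on silent developmental genes. When mESCs form embryoid bodies, pluripotency genes shut down, an outer layer of extraembryonic endoderm forms, and inner cells pass through a formative, epiblast-like state toward mesoderm and other lineages. Visceral endoderm, the secreting and absorbing layer around the early embryo, is known by serum protein genes (Afp, Ttr, Apoa1) and by uptake receptors (Cubn). The primitive streak, where mesoderm begins, is known by T and Mixl1.

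The 16 libraries held 20158077 to 28917558 counts, and the 4 compared here 20452195 to 28169697. Levels are given as CPM, that is counts scaled for library size with factors from the trimmed mean of M-values (TMM), and all differences are log2 changes of K19R day 10 over FLAG-WT day 6 unless another pair is named. The TMM factors were 0.827 and 0.838 in FLAG-WT day 6 and 1.02 and 0.996 in K19R day 10. Scaling by library totals instead moved the median log2 change of all genes from 0.08 to 0.36, so small differences are read against that shift. Replicates differed by more than counting noise (chi-square of 3.82 per degree of freedom in FLAG-WT day 6 and 8.42 in K19R day 10), so none was taken for a repeat. By their markers both groups were rich in visceral endoderm, with Afp at 6212 CPM or more in all 4 libraries, and poor in heart and blood: Tnnt2 was below 1 CPM in all 4, and the embryonic globin gene Hbb-bh1 held 7 counts over all 16 libraries and was not tested. Eed itself (chromosome 7, 89954654 to 89980983, minus strand, on GRCm38, as are all positions here) stood at 46.3 and 39.1 CPM in FLAG-WT day 6 and at 50.0 and 47.0 in K19R day 10, and its difference did not pass (0.18 ± 0.08 SE, edgeR adjusted p = 0.0677). It passed with library totals only (0.46) and without FLAG-WT day 6 replicate 1 (0.32). A gene-level count cannot reveal a base change, so Eed does not check the genotype labels.

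K19R day 10 and FLAG-WT day 6 differed at most genes. Of 19092 genes tested, edgeR's quasi-likelihood test called 11009 (57.7%) at an adjusted p under 0.05, 5921 higher (31.0%) and 5088 lower (26.6%) in K19R. At least 2-fold differences were mostly rises, 3160 against 1196. With library totals only, the higher share of the calls went from 53.8% to 75.1%. For scale, and with libraries shared between these comparisons, K19R day 10 differed from FLAG-WT day 10 at 11142 genes, from FLAG-WT day 2 at 12864 and from FLAG-WT day 0 at 14020. FLAG-WT day 10 differed from FLAG-WT day 6 at 8432. Library by library, the median absolute log2 difference was 0.504 to 0.573 between K19R day 10 and FLAG-WT day 6, and 0.527 to 0.603 between K19R day 10 and FLAG-WT day 10. It was 0.168 and 0.135 between the replicates of the 2 groups compared. The distances of K19R day 10 to the 2 FLAG-WT days overlap, and both are longer than those days' distance from each other (0.415 to 0.431).

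On the genes that FLAG-WT itself moves, K19R day 10 lay short of FLAG-WT day 6, and by more for genes being shut off than for genes being switched on. An axis was drawn through 9448 genes that were called and at least 2-fold different between FLAG-WT day 2 (set to 0) and FLAG-WT day 10 (set to 1), libraries that belong to neither group compared. Each library's position is its median over those genes. FLAG-WT day 6 stood at 0.806 and 0.834, and K19R day 10 at 0.599 and 0.613. On the 4375 rising genes the values were 0.845 and 0.837 against 0.730 and 0.724. On the 5073 falling genes they were 0.769 and 0.830 against 0.491 and 0.516. The groups did not overlap on any of the 3 measures, and the mean differences were -0.214, -0.114 and -0.296. An exact two-sided permutation test gave p = 0.333 for each, the smallest p that 2 against 2 libraries allow. With library totals only, the difference on rising genes turned to 0.017, while those on all genes and on falling genes grew to -0.257 and -0.353. Taken gene by gene, 2411 falling genes (47.5%) were called on the day 2 side of FLAG-WT day 6 and 346 (6.82%) on its day 10 side. Rising genes were more mixed, with 1988 (45.4%) on the day 2 side and 1031 (23.6%) already past FLAG-WT day 6.

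**Figure D1:**
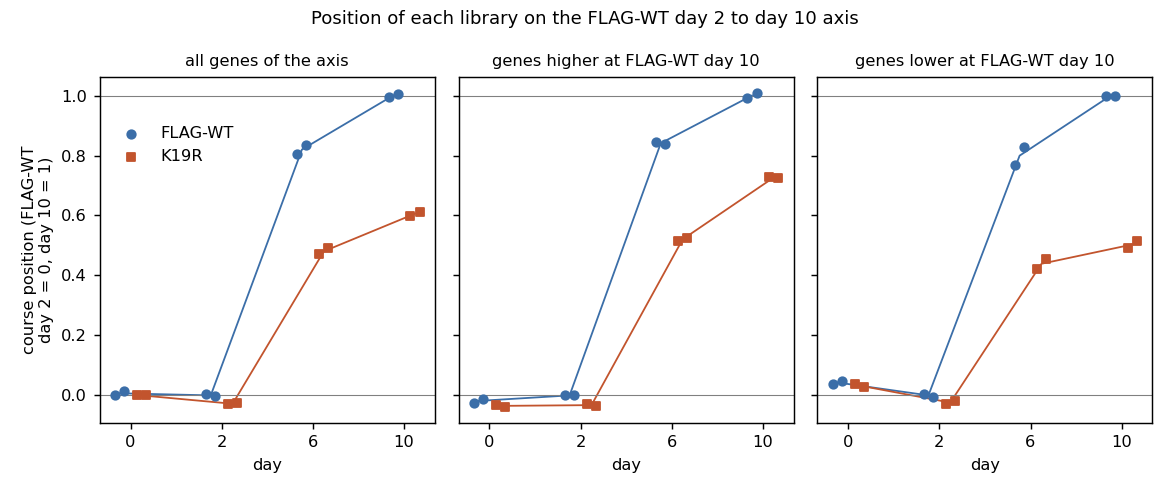
Course position of each of the 16 FLAG-EED libraries (y axis, no unit, FLAG-WT day 2 set to 0 and FLAG-WT day 10 to 1) by sampling day (x axis, days evenly spaced), over all axis genes, rising genes and falling genes; points are libraries and lines join group means. K19R day 10 lies between 0.599 and 0.613 over all genes, below FLAG-WT day 6 at 0.806 and 0.834, and the gap is wider for falling than for rising genes.

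Some of the 11009 called genes differed from FLAG-WT on all of its sampled days. A gene was taken as outside the FLAG-WT course where K19R day 10 differed in 1 direction from each of FLAG-WT days 0, 2, 6 and 10 and the largest of the 4 p-values passed after adjustment over all genes. There were 981 such genes (5.14% of those tested), 680 above the course (3.56%) and 301 below it (1.58%), of which 334 and 22 lay at least 2-fold beyond the nearest FLAG-WT day. The share above was 69.3%, and it was 61.3% with another size factor method (RLE), 54.8% with DESeq2 and 89.1% with library totals only. Levels between the sampled days were not measured, so a gene that peaks between them in FLAG-WT would count as outside, and a gene that did not pass is not thereby shown to lie within. In the other direction, 4160 genes (21.8%) had a level at FLAG-WT day 6 that K19R showed on none of its 4 days, 2359 above (12.4%) and 1801 below (9.43%). The larger of those sides turned with the scaling: 56.7% were above as scaled here and 23.3% with library totals only.

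**Figure D2:**
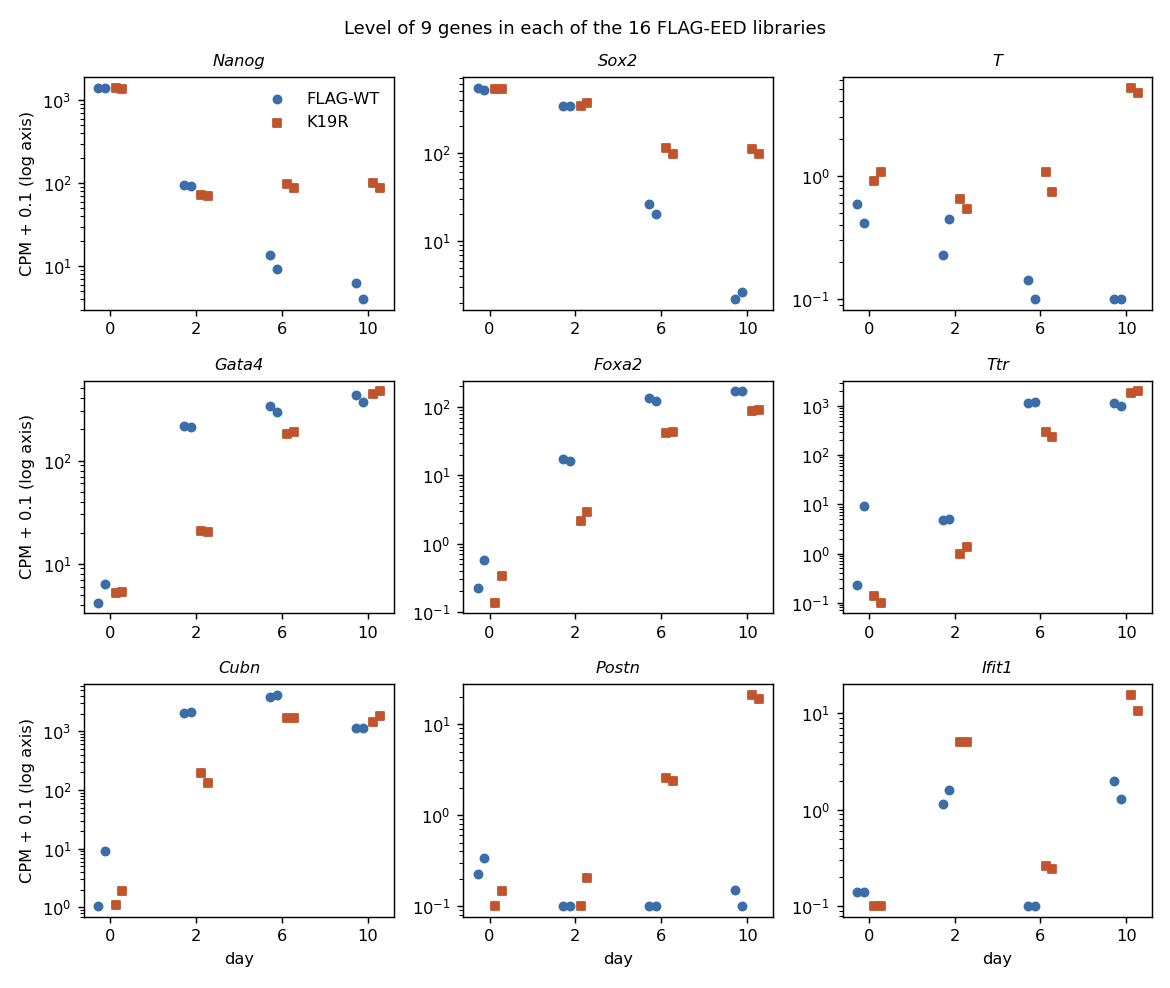
Level of 9 genes in each of the 16 FLAG-EED libraries (y axis, CPM plus 0.1 on a log axis, so that a library with no count sits at 0.1) by sampling day (x axis, days evenly spaced). At day 10 the K19R libraries hold Nanog at 102 and 87.4 CPM, T at 5.07 and 4.58 and Postn at 20.9 and 18.8, each above FLAG-WT day 6, and Foxa2 at 87.1 and 90.2, below it.

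Pluripotency genes were still expressed in K19R at day 10 at levels that FLAG-WT had left by day 6. Nanog, a core pluripotency factor (chromosome 6, 122707489 to 122714633), stood at 13.7 and 9.28 CPM in FLAG-WT day 6 and at 102 and 87.4 in K19R day 10, a difference of 3.02 ± 0.13 SE (edgeR adjusted p = 8.5e-16). That is close to its FLAG-WT day 2 level of 94.3 and 93.8 CPM. Sox2, its partner in the core network, stood at 25.9 and 19.9 against 110.2 and 95.8 CPM (2.16 ± 0.10, adjusted p = 6.82e-15), and Pou5f1 at 56.6 and 41.9 against 97.9 and 80.8 CPM (0.85 ± 0.11, adjusted p = 1.46e-07). In each case all K19R libraries lay above all FLAG-WT day 6 libraries. In bulk RNA, a larger share of pluripotent cells and more RNA per such cell cannot be told apart. Not all 3 were at 1 point of the FLAG-WT course, since Pou5f1 and Sox2 were far below their FLAG-WT day 2 levels of 596 and 585 CPM and of 336 and 339 CPM.

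Of 18 naive pluripotency genes, which mark the ground state of mESCs, 14 were higher in K19R day 10, 3 lower and 1 did not pass, with a median log2 change of 0.90 beside 0.08 for all genes tested. The nuclear receptor gene Nr5a2 (3.46 ± 0.22) and Prdm14 (2.86 ± 0.28) rose most. Zfp42, a classical marker, stood at 53.6 and 48.2 against 178 and 130.4 CPM. The exceptions were the Krüppel-like factor genes Klf5 (-1.35 ± 0.08) and Klf2 (-1.17 ± 0.09) and, named after its value was seen, Dppa5a (-0.26). Klf2, at 181 and 161 against 81.9 and 70.7 CPM, lay below the whole FLAG-WT course. Among 10 core pluripotency genes 6 were higher and 2 lower, Lin28a (-0.70 ± 0.08) and Utf1 (-0.61 ± 0.10).

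The formative and primed epiblast list, which marks the step after the naive state, had 8 of 14 members higher and 3 lower, with a median of 1.42. Fgf5, its textbook marker, stood at 1.72 and 1.17 CPM in FLAG-WT day 6 and 7.02 and 6.07 in K19R day 10 (2.14 ± 0.20, adjusted p = 2.58e-09). Both are far from the FLAG-WT day 2 values of 68.2 and 66.9 CPM. Otx2, a head and epiblast regulator, was higher (0.99 ± 0.11), Pou3f1 was lower (-0.92 ± 0.14), and Sfrp2, a secreted WNT modulator, lower by a call that was lost without FLAG-WT day 6 replicate 1 (-0.50) and with library totals only (-0.49). Dnmt3b, the de novo DNA methyltransferase of the epiblast, was the third lower member at -0.19 ± 0.07, and its sign turned with library totals only (0.09). Fgf8 (4.59 ± 0.37) and the N-cadherin gene Cdh2 (3.51 ± 0.20) rose to above the FLAG-WT course. Fgf8, a ligand of the primitive streak, went from 0.129 and 0.350 to 5.15 and 5.85 CPM, and its place above the course was lost without FLAG-WT day 2 replicate 2 (adjusted p = 0.0521).

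Some streak genes reached levels in K19R at day 10 that no sampled FLAG-WT day showed. FLAG-WT levels between day 2 and day 6 were not measured, so a peak there would be missed. T (Brachyury, chromosome 17, 8434423 to 8442496) had 1 count over the 2 FLAG-WT day 6 libraries and 235 over the 2 K19R day 10 libraries, a ratio of 195 (exact 95% interval 34.7 to 7740, counting error only). In CPM it stood at 5.07 and 4.58 in K19R, and its highest FLAG-WT value on any sampled day was 0.495 CPM. Mixl1, another streak regulator, rose from 0.386 and 0.175 to 3.03 and 2.71 CPM (3.26 ± 0.39, adjusted p = 1.02e-07) and also lay above the course. Hand1, of extraembryonic and lateral mesoderm, went from 2.62 and 2.34 to 19.03 and 20.2 CPM. Eomes, which FLAG-WT expressed at 32.1 and 34.1 CPM on day 2, stood at 16.8 and 12.9 against 25.1 and 26.0 CPM and lay within the course. Over the list, 9 of 14 tested members were higher, 1 lower and 4 did not pass, with a median of 0.77, and 4 lay above the course. The lower one was Foxf1 (-1.95 ± 0.25), a regulator of lateral and visceral mesoderm. The levels are low beside those of the endoderm genes, and Mesp1, the marker of cardiac mesoderm, held 34 counts over all 16 libraries and was not tested.

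Of 14 tested endoderm regulators 8 were higher, 2 lower and 4 did not pass, with a median of 0.52. Gata4, an early endoderm factor (chromosome 14, 63198922 to 63271692), stood at 335 and 298 CPM in FLAG-WT day 6 and at 439 and 470 in K19R day 10 (0.52 ± 0.08, adjusted p = 7.73e-06). Sox17 stood at 85.8 and 70.6 against 130.1 and 133 CPM (0.74 ± 0.10). Hnf4a, a master regulator of visceral endoderm, stood at 272 and 261 against 379 and 394 CPM (0.54 ± 0.13, adjusted p = 0.00118), a call that DESeq2 did not make (adjusted p = 0.326). Foxa1, a pioneer factor, rose from 2.10 and 1.34 to 15.1 and 11.5 CPM (2.91 ± 0.23), and lay above the course. Cxcr4, a chemokine receptor of definitive endoderm, rose from 0.773 and 0.409 to 5.07 and 4.58 CPM. Against these, Foxa2 was lower, at 137 and 123 against 87.1 and 90.2 CPM (-0.56 ± 0.09), and so was Gata6, at 109 and 109 against 93.6 and 87.2 CPM (-0.27 ± 0.07), though its sign turned with library totals only (0.01). With library totals only, 12 were higher and 1 lower.

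Of 18 serum protein genes of the visceral endoderm 5 were higher, 5 lower and 8 did not pass (median 0.13), shares close to those of all genes. Serpina1b, a protease inhibitor gene, rose most, from 0.258 and 0.117 to 3.83 and 2.375 CPM (3.95 ± 0.50, edgeR adjusted p = 3.96e-07). Transthyretin (Ttr) stood at 1141 and 1208 against 1839 and 2002 CPM (0.71 ± 0.26, adjusted p = 0.0225). That call was lost with DESeq2 (adjusted p = 0.641) and without FLAG-WT day 6 replicate 1, FLAG-WT day 6 replicate 2 or K19R day 10 replicate 2 (adjusted p = 0.105, 0.0741 and 0.0677). Apoa1, the main protein of high-density lipoprotein, stood at 1968 and 1933 against 1813 and 1977 CPM and did not pass (-0.04 ± 0.24). Alpha-fetoprotein (Afp) stood at 6212 and 6516 against 11200 and 9426 CPM, groups that do not overlap, and did not pass in the fit of 16 libraries (0.70 ± 0.45, adjusted p = 0.19). It passed in a fit of the 4 libraries compared (adjusted p = 3.55e-06). FLAG-WT day 0 replicates, at 1.78 and 55.0 CPM, enter the spread fitted for Afp, and it passed without the 4 day 0 libraries too (adjusted p = 0.000105). The retinol carrier gene Rbp4 was lower (-1.05 ± 0.20), a call that DESeq2 did not make (adjusted p = 0.0519), and so was the lipid carrier gene Apoe (-0.98 ± 0.13). DESeq2 called 2 members higher and 3 lower.

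Uptake genes were lower. Of the 10 genes on that list 9 fell, with a median of -0.85, and 6 fell with DESeq2. Cubilin (Cubn, chromosome 2, 13276338 to 13491813), the endocytic receptor of the visceral endoderm, stood at 3842 and 4178 against 1442 and 1828 CPM (-1.29 ± 0.24, adjusted p = 4.45e-05), a call that DESeq2 did not make (adjusted p = 0.0631). The lysosomal protease gene Lgmn stood at 4434 and 4284 against 1546 and 1975 CPM (-1.31 ± 0.09). FLAG-WT itself lowered both by day 10, to 1138 and 1141 CPM for Cubn and 1957 and 2267 for Lgmn. The 1 member that rose, Ihh, is a signalling ligand and not a receptor. It went from 26.8 and 23.2 to 76.7 and 85.8 CPM and lay above the course (1.70 ± 0.15). The parietal endoderm matrix list, made of basement membrane genes, fell in 10 of 12 members (median -0.60). The nidogen genes Nid2 (-1.39 ± 0.09) and Nid1 (-0.79 ± 0.10) led. From day 6 to day 10 FLAG-WT lowered 8 uptake genes and raised 0, but it raised 9 matrix genes and lowered 2. Against FLAG-WT day 10, K19R day 10 had 2 uptake genes higher and 3 lower. For the matrix genes it was 1 higher and 11 lower. In the gut and epithelium list 8 of 13 fell, among them the keratin gene Krt18, at 2323 and 2237 against 1112 and 1122 CPM, and 4 rose, with the trefoil factor gene Tff3 leading, at 5.15 and 5.14 against 44.7 and 36.4 CPM. FLAG-WT also raised Tff3 after day 6, to 72.3 and 66.5 CPM by day 10. Of the gut and epithelium list FLAG-WT raised 9 members and lowered 2 from day 6 to day 10. Against FLAG-WT day 10, K19R day 10 had 2 of them higher and 10 lower. With library totals only, 5 members of that list fell against FLAG-WT day 6.

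**Figure D3:**
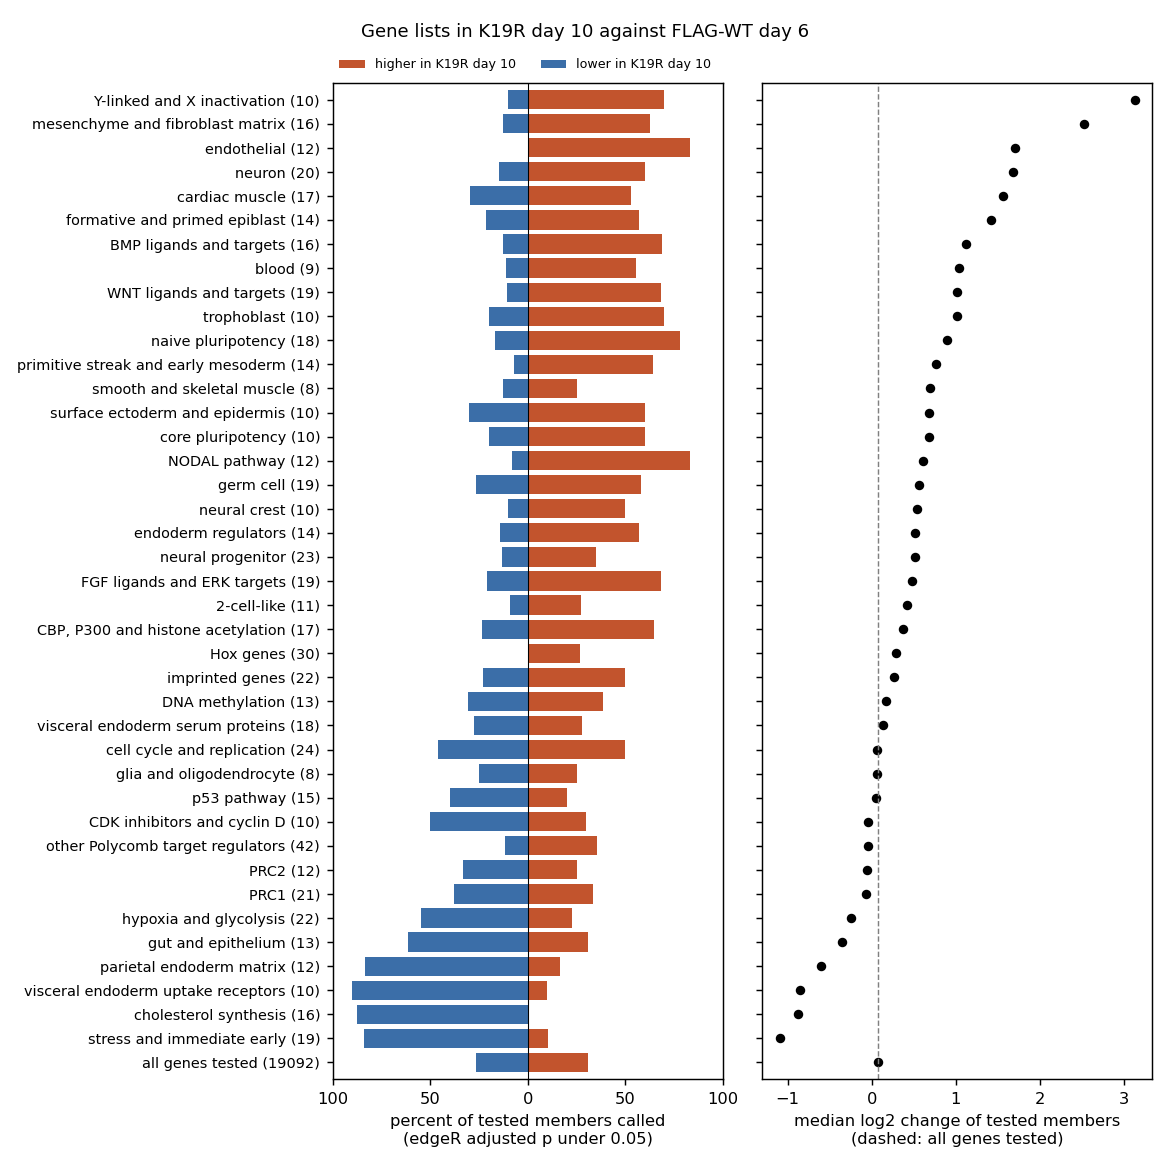
Share of each list's tested members called higher (right, orange) or lower (left, blue) in K19R day 10 than in FLAG-WT day 6, in percent, and the median log2 change of the tested members (right panel; dashed line, all genes tested), with the number tested in brackets. Uptake receptors, cholesterol synthesis and stress genes stand at the lower end, with medians of -0.85, -0.88 and -1.09, and mesenchyme and Y-linked genes at the upper end, with 2.53 and 3.13.

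Of the 10 genes that rose most, 5 are known from other settings as genes that interferon induces: Ifit1, Oasl2, Ddx60, Isg15 and Irgm2. No list of such genes had been drawn up, so the count is a description. Ifit1 (chromosome 19, 34640871 to 34650009), which binds foreign RNA, had 0 counts in FLAG-WT day 6 and 15.4 and 10.5 CPM in K19R. With each FLAG-WT library set to a floor of 3 counts it was at least 85.8-fold higher. Isg15, a ubiquitin-like modifier, went from 0.258 and 0.175 to 12.8 and 10.7 CPM (5.69 ± 0.36, adjusted p = 1.37e-12). Irgm2, a GTPase of cell-autonomous immunity, went from 1.03 and 0.876 to 24.8 and 21.1 CPM (4.57 ± 0.28). Ifit1, Isg15, Irgm2 and Oasl2 lay above the FLAG-WT course, and Ddx60 did not (0.24 above the nearest day). FLAG-WT expressed some of them on other days, such as Oasl2 at 8.41 and 9.001 CPM on day 2, 0.172 and 0.234 on day 6 and 6.32 and 6.80 on day 10.

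The promoters of 3 of these genes are shown because interferon-responsive genes often carry the interferon-stimulated response element, here searched as GAAA, 2 bases of any kind and GAAA again, on both strands (TTTC for GAAA on the other). Each window runs from 250 bases before to 50 bases after a RefSeq transcript start (GRCm38.p6, read along the gene's strand), and capitals mark matches. RefSeq windows matched 12910 of the 19092 genes tested, and 374 of them (2.9%) hold the motif. Of the 5 genes, 4 hold it and Oasl2 does not. All 5 were singled out as known interferon-induced genes, so the count is no test against the share of all genes. The 3 shown are among the 4 that hold it. Ifit1 lies at chr19:34640639-34640938 (plus strand, 2 matches), Isg15 at chr4:156200769-156201068 (minus strand, 3 matches that overlap) and Irgm2 at chr11:58214727-58215026 (plus strand, 1 match).
Ifit1: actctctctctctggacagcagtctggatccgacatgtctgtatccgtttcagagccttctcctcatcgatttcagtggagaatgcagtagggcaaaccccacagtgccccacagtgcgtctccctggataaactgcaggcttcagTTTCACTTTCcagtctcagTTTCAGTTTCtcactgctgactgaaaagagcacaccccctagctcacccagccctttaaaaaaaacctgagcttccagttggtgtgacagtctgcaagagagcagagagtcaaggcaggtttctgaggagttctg
Isg15: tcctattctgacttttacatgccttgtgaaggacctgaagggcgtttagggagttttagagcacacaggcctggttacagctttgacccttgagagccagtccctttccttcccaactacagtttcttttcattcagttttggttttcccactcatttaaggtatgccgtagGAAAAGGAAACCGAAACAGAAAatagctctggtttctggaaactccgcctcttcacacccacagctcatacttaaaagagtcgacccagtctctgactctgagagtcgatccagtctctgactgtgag
Irgm2: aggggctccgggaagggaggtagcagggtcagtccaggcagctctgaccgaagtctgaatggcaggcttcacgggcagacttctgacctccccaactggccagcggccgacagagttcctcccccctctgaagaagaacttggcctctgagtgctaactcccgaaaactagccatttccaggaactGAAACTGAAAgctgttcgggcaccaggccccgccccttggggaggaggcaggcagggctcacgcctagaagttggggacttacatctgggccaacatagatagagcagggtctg
A match describes the letters and is not evidence of binding.

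**Figure D4:**
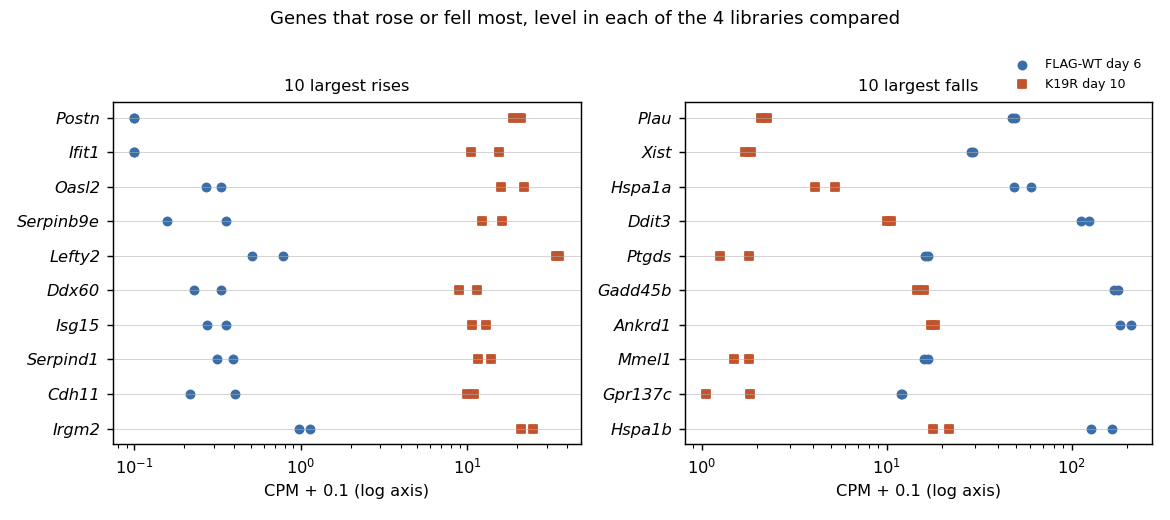
Level of the 10 genes that rose most and the 10 that fell most (y axis, genes ordered by log2 change) in each of the 4 libraries compared (x axis, CPM plus 0.1 on a log axis; circles, FLAG-WT day 6; squares, K19R day 10). The genes were picked for large changes called in every leave-one-out fit, so that the groups are apart is no finding. Ifit1, for example, has no count in FLAG-WT day 6 and 15.4 and 10.5 CPM in K19R day 10, and Plau goes from 49.6 and 47.8 CPM to 2.00 and 2.16.

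Of the 8 genes named as farthest above the FLAG-WT course, 5 are known from mesenchyme and its matrix: Postn, Acta2, Cdh11, Igfbp5 and Col1a2. Postn, a matrix protein of fibroblasts and heart valves (chromosome 3, 54361109 to 54391037), had 0 counts in FLAG-WT day 6 and 20.9 and 18.8 CPM in K19R day 10, at least 131-fold higher, and no FLAG-WT library exceeded 0.237 CPM. Acta2, smooth muscle actin, stood at 3.22 and 3.795 against 36.5 and 36.2 CPM (3.38 ± 0.15, adjusted p = 1.45e-15). Igfbp5, which binds insulin-like growth factors, stood at 6.10 and 5.72 against 65.3 and 61.2 CPM (3.42 ± 0.16), and Cdh11, a mesenchymal cadherin, at 0.301 and 0.117 against 10.9 and 9.92 CPM (5.52 ± 0.37). These were named for their distance above the course, so that place is no finding. The collagen gene Col1a2 (5.45 and 3.91 against 32.5 and 28.1 CPM) was named likewise, and Col1a1 (0.859 and 1.11 against 11.5 and 18.8 CPM), named for its role, also lay above the course. Over the mesenchyme list, 10 of 16 tested members rose and 2 fell (Twist1, at -1.14 ± 0.13, and the fibronectin gene Fn1, at -0.60 ± 0.11). Its median was 2.53, or 2.39 with 2 members at 0 counts in FLAG-WT day 6 set at their bound and 1, which has no bound, left out, and 5 members lay above the course. Not all mesenchyme markers were expressed. Lum, Twist2 and S100a4 held 12, 21 and 0 counts over all 16 libraries and were not tested. Dcn had 0 counts in FLAG-WT day 6 and 7 in K19R day 10. Acta2 was higher still in K19R at day 6, at 49.4 and 58.5 CPM.

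Lists of other cell types differed in how many members rose. Neural progenitor genes (8 of 23 higher, 3 lower), glial genes (2 of 8 higher, 2 lower) and muscle genes (2 of 8 higher, 1 lower) were near or below the 31.0% of all genes that were higher. Of 12 endothelial genes 10 rose and none fell (median 1.70, or 1.58 with Erg at its bound): the adhesion gene Cdh5 stood at 0.988 and 0.817 against 15.5 and 12.98 CPM, and Pecam1 at 11.8 and 9.87 against 42.7 and 35.9. FLAG-WT reached 11.2 and 16.9 CPM of Cdh5 by day 10, whereas its Pecam1, also a gene of mESCs, fell to 2.92 and 4.12. Against FLAG-WT day 2, however, 3 endothelial genes were higher in K19R day 10 and 4 lower (median -0.01). Against FLAG-WT day 0 it was 5 and 3 (median 0.13). Among 17 cardiac genes 9 rose and 5 fell (median 1.56), with no rise reaching a K19R mean above 5.14 CPM (Tbx20), and the falls including the atrial myosin gene Myl7 (-1.86 ± 0.37) and the peptide gene Nppb (-1.69 ± 0.17). Of 20 neuronal genes 12 rose and 3 fell (median 1.68). Against FLAG-WT day 2, by contrast, 5 were higher in K19R day 10 and 9 lower (median -0.30), and against FLAG-WT day 0, 5 and 11 (median -0.81). Stmn2, a microtubule regulator, stood at 3.35 and 2.80 against 23.9 and 19.6 CPM, both below its FLAG-WT day 2 level of 102 and 105 CPM, and Nefm, a neurofilament gene, fell by 2.72 ± 0.15. Pax6, a neural regulator, did not pass (-0.23 ± 0.33). Of 10 tested trophoblast genes 7 rose and 2 fell (median 1.02). The falls were Gcm1 (-1.65) and Plac1 (-0.47), the latter a call lost with library totals only (-0.19). Prl3d1, a hormone of trophoblast giant cells, had 0 counts against 1.76 and 1.95 CPM, at least 12.2-fold higher, and lay above the course. Tpbpa, Prl2c2 and Psg17, of the same list, held 7, 23 and 12 counts over all 16 libraries and were not tested.

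On the lists of 4 signalling pathways more members were higher than lower, where 31.0% of all genes tested were higher. Some members are shared with the pluripotency, epiblast and streak lists. Against FLAG-WT day 2, NODAL genes were 4 higher and 8 lower, and FGF and ERK genes 6 and 12. WNT genes were 8 and 8 there, and BMP genes 13 and 1. FLAG-WT itself raised 12 BMP genes and lowered 1 from day 6 to day 10. Of 12 NODAL pathway genes 10 rose and 1 fell (median 0.61). Lefty2, a target and inhibitor of NODAL (chromosome 1, 180893108 to 180899103), stood at 0.687 and 0.409 against 35.7 and 34.0 CPM (5.92 ± 0.27, adjusted p = 3.49e-15). It was within the course, as FLAG-WT had 291 and 280 CPM on day 2. Of 19 WNT genes 13 rose and 2 fell (median 1.02), and of 16 BMP genes 11 rose and 2 fell (median 1.12). The WNT amplifier gene Rspo3 went from 0.902 and 0.525 to 4.11 and 5.90 CPM and the WNT modulator gene Sfrp5 from 6.48 and 5.49 to 40.4 and 49.4, both above the course. Smad6, an inhibitor that BMP signals switch on, stood at 5.32 and 4.09 against 45.9 and 53.7 CPM (3.38 ± 0.15), also above the course. Bmp5, a ligand, had 0 counts in FLAG-WT day 6 and 1.84 and 2.33 CPM in K19R day 10, at least 13.7-fold higher. For FGF and ERK, 13 of 19 rose and 4 fell (median 0.48): the ETS factor gene Etv1 rose (3.56 ± 0.31), while the feedback genes Spry1 (-1.55 ± 0.10) and Dusp4 (-1.38 ± 0.08) fell.

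Stress genes were lower, and 4 of the 10 genes that fell most are induced by stress: Hspa1a, Ddit3, Gadd45b and Hspa1b. Gadd45b was not on the list drawn up, so the count of 4 is a description. Of 19 stress and immediate early genes 16 fell and 2 rose, with a median of -1.09. Ddit3, the stress factor CHOP (chromosome 10, 127290774 to 127296288), stood at 113 and 125 against 10.5 and 10.0 CPM (-3.53 ± 0.21, adjusted p = 4.47e-13). The heat shock genes Hspa1a, at 48.7 and 60.5 against 5.19 and 4.03 CPM, and Hspa1b, at 127 and 165 against 21.6 and 17.8, are near-identical copies whose counts are uncertain between them. Gadd45b, a stress-induced growth regulator, stood at 169 and 178 against 14.6 and 15.9 CPM, and Ankrd1, a target of mechanical and YAP signals, at 210.0 and 183 against 18.2 and 17.4. Chac1 rose (1.96 ± 0.21), and so did Asns (0.43 ± 0.08). FLAG-WT day 10 replicates themselves differed in these genes, with Hspa1a at 41.9 and 107 CPM and Ddit3 at 47.8 and 103. The mitochondrial share of counts was 2.5% and 2.24% in FLAG-WT day 6, the highest of the 16 libraries, and 1.92% and 1.85% in K19R day 10, and its part in the result was not tested. K19R was lower already at day 6, where Ddit3 stood at 18.2 and 23.9 CPM. The single largest fall was that of Plau, the urokinase protease gene (chromosome 14, 20836660 to 20843385), from 49.6 and 47.8 to 2.00 and 2.16 CPM (-4.55 ± 0.16, adjusted p = 5e-17). FLAG-WT held it at 65.8 and 71.6 CPM on day 10 and at 0.992 and 1.38 on day 2, so K19R stood near the early level.

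Cholesterol synthesis genes were lower too. Of all genes tested 26.6% were lower and 31.0% higher. Of 16 cholesterol synthesis genes 14 fell and none rose, with a median of -0.88, and with library totals only 12 fell and 1 rose. FLAG-WT itself lowered 9 of them and raised 2 from day 6 to day 10 (median -0.38). Against FLAG-WT day 10, K19R day 10 had 12 lower and 2 higher. The enzyme gene Fdps, at 5.50 and 4.20 against 1.24 and 1.61 CPM, fell most (-1.78 ± 0.26). Hypoxia and glycolysis genes fell in 12 and rose in 5 of 22 (median -0.25), but the split was 7 and 8 with library totals only. FLAG-WT itself lowered 13 of these and raised 2 from day 6 to day 10 (median -0.33). Against FLAG-WT day 10, K19R day 10 had 8 lower and 11 higher (median 0.09). The glucose transporter gene Slc2a1 stood at 1709 and 1760 against 729 and 900 CPM (-1.09 ± 0.08), and the angiogenic factor gene Vegfa at 271 and 290 against 179 and 174 (-0.67 ± 0.07). In the p53 list 6 of 15 fell and 3 rose, and 3 and 8 with library totals only, led by the cell death genes Bbc3 (-1.83 ± 0.09) and Pmaip1 (-1.81 ± 0.10), while Trp53 itself rose (0.58 ± 0.07). Cell cycle and replication genes split, 12 higher and 11 lower of 24. Mki67 rose (0.67 ± 0.10), and the mitotic genes Ccnb2 (149 and 144 against 81.3 and 85.3 CPM) and Cdc20 (320.1 and 308 against 205 and 191 CPM) fell to below the FLAG-WT course, which for Ccnb2 did not hold with library totals only.

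Genes of the Polycomb machinery differed little in size. Of all genes tested 26.6% were lower and 31.0% higher. Of 12 tested PRC2 genes 4 were lower and 3 higher, near those shares, a split that turned to 2 and 5 with library totals only. Ezh2, the main methyltransferase, stood at 134 and 135 against 93.0 and 96.9 CPM (-0.50 ± 0.07), near its FLAG-WT day 10 level of 88.1 and 91.1. Its paralog Ezh1 was lower as well (-0.45 ± 0.07), and the accessory gene Phf19 was higher (1.17 ± 0.24). Of 21 PRC1 genes 8 were lower and 7 higher (3 and 10 with library totals only, and 5 and 6 without FLAG-WT day 6 replicate 1), with Ring1 (1.24 ± 0.15) and Bmi1 (1.21 ± 0.13) among the higher. On the list of acetyltransferases and deacetylases, which holds the enzymes the series' title names, 11 of 17 were higher and 4 lower. Crebbp (CBP) stood at 21.5 and 23.3 against 42.4 and 42.1 CPM and Ep300 (P300) at 112 and 98.0 against 149 and 158, both named after their values were seen. The deacetylase gene Hdac1 stood at 72.5 and 71.1 against 158 and 145 CPM (1.07 ± 0.07).

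Polycomb target regulators were higher in about the share of all genes (31.0%). Of 42 tested, 15 were higher, 5 lower and 22 did not pass, with a median of -0.04. Of 30 tested Hox genes, the classic PRC2 targets, 8 were higher, 0 lower and 22 did not pass (median 0.29). Without FLAG-WT day 6 replicate 1 or K19R day 10 replicate 2, 2 were lower. The rises rest on few counts: Hoxc12 had 0 counts against 11, at least 1.49-fold higher, and Hoxd11 1 count against 16, a ratio of 13.3 (exact 95% interval 2.07 to 557). Hoxb9 stood at 1.72 and 3.21 against 2.19 and 1.32 CPM, groups that overlap. It did not pass (edgeR adjusted p = 0.207), though it passed as lower without FLAG-WT day 6 replicate 1 (adjusted p = 0.0266). None of the 30 lay outside the FLAG-WT course.

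Below the FLAG-WT course stood fewer genes, and by less. Epha4, an ephrin receptor gene (chromosome 1, 77367185 to 77515088), stood at 99.5 and 101 CPM in FLAG-WT day 6 and at 33.8 and 36.0 in K19R day 10 (-1.52 ± 0.08, adjusted p = 1.45e-14). Its lowest FLAG-WT value on any sampled day was 86.9. Grasp stood at 38.9 and 40.5 against 7.18 and 6.66 CPM, the mESC-expressed RAS gene Eras at 10.2 and 10.98 against 1.96 and 2.59, and Noct, a circadian deadenylase relative, at 62.9 and 63.0 against 27.8 and 26.3. These 4 were named for their distance below the course, at least 1.20 log2 units from the nearest FLAG-WT day.

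Y-linked genes were higher and Xist lower in K19R. Of 10 tested Y-linked and X inactivation genes 7 were higher and 1 lower, and 6 lay above the course and 1 below it. Eif2s3y stood at 4.59 and 4.38 against 45.8 and 53.5 CPM (3.46 ± 0.12, adjusted p = 1.75e-17), and Kdm5d had 1 count against 91, a ratio of 75.6 (exact 95% interval 13.2 to 3020). Xist, the noncoding RNA of X inactivation (chromosome X, 103460366 to 103483254), stood at 28.4 and 29.3 against 1.76 and 1.61 CPM (-4.09 ± 0.15), and its reads could not be told from those of its antisense partner Tsix. Eif2s3y separated the lines on each sampled day, at 4.28 to 5.90 CPM in the 8 FLAG-WT libraries and 32.9 to 55.1 CPM in the 8 K19R libraries. Whether the lines differ in their sex chromosomes, and what part that has in any other difference here, was not tested.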

How the data were processed

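RNA was sequenced from mESCs and embryoid bodies. Per the submitters' processing notes the tools named are bcl2fastq 2.17, FastQC 0.11.7, Trim Galore 0.6.0, STAR 2.7.0c and featureCounts 1.6.3, and the builds mm10 and GRCm38. The deposited values are raw counts per gene from featureCounts with the GENCODE vM19 annotation, per the file headers. The counting command has no strand option, per the file headers, so overlapping and antisense genes (Xist and Tsix) and near-identical copies (Hspa1a and Hspa1b, the Zscan4 and Serpinb9 families) are uncertain.

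Here the 16 FLAG-EED libraries were fitted together in edgeR 4.0.16 (R 4.3.3), with genes filtered by filterByExpr (minimum count 10, total 15), TMM factors, 1 coefficient per group and the quasi-likelihood test (8 residual degrees of freedom). Of 54429 genes 19092 were tested, and p-values were adjusted by Benjamini-Hochberg over all of them. SE is the log2 change over the square root of F. Library totals were 20158077 to 28917558 counts, and precision also depends on the spread between replicates. The floor for a gene without counts was 3 counts in each library. Ratios on 1 to 3 counts carry exact 95% binomial intervals. These cover counting error only. Course positions used a prior count of 2.

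The text names fixed anchor genes, the 10 largest rises and falls that were called in every leave-one-out fit with at least 10 CPM in the higher group, the 8 farthest above and below the FLAG-WT course, up to 2 called members per list and direction, and every member of small counts. Outside that rule, Crebbp, Ep300, Dppa5a, Tbx20, Tsix and, in the closing section, Igf2, Peg3, Dazl and the interferon-induced genes were named after their values were seen. The genes and lists were chosen with earlier results of these data known. Alternatives were RLE factors, library totals, no filter, DESeq2 1.42.0, a replicate block, other sets of libraries, other axes and prior counts. The fits were also run on simulated data in which few genes changed, evenly up and down, a setting that cannot test the scaling. Some genes are not reported here.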

Additional observations from a re-analysis of the deposited data

How the results depend on the processing

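Total counts of genes stayed within 1.5 times the reported value under all alternatives run (91 of 91), but counts by direction did not: with library totals only, 5921 higher and 5088 lower became 8585 and 2843, 680 above and 301 below the FLAG-WT course became 1107 and 136, and 2359 above and 1801 below the K19R course became 1044 and 3443. The 11009 genes called between K19R day 10 and FLAG-WT day 6 became 11428 with library totals only, 10325 with DESeq2 and 9531 to 10314 with 1 of the 4 libraries left out. The 981 outside the FLAG-WT course became 1243 with library totals only and 884 with DESeq2, and the 4160 outside the K19R course 4487 and 3898. Leaving out any 1 library that enters them gave 694 to 1000 and 3258 to 4121. Without the 4 day 0 libraries, an alternative chosen after seeing the data, 10721 genes were called. With the replicate number as a block (replicate block), the 3 counts were 10907, 956 and 4126. Same-numbered samples did not deviate together (r = 0.016 for the 2 groups compared, -0.03 to 0.048 over 28 pairs of groups), so the numbers were not taken to pair them. The course position difference of -0.214 was -0.257 with library totals only, -0.174 on an axis from FLAG-WT day 0 to day 10, and -0.228 to -0.188 with 1 library left out. On rising genes it turned to 0.017 with library totals only, as did the log2 changes of Dnmt3b (0.09) and Gata6 (0.01), and the cause was not tested. With 2 libraries a group, no permutation p can go below 0.333.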

Other observations

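The interferon-induced genes here were picked after their values were seen, and are described only. Beyond the interferon-induced genes among the largest rises, others known from that response were higher in K19R day 10. Parp14, a mono-ADP-ribosyltransferase, stood at 2.02 and 1.34 CPM in FLAG-WT day 6 and 40.7 and 33.2 in K19R day 10 (4.42 ± 0.22, edgeR adjusted p = 1.33e-14). Usp18, which removes ISG15 from proteins, stood at 1.12 and 0.525 against 18.5 and 18.96 CPM, and Ifih1, a sensor of double-stranded RNA, at 1.29 and 1.28 against 19.4 and 19.4. These 3 lay above the FLAG-WT course, though FLAG-WT raised Usp18 to 10.2 and 10.3 CPM by day 10. Gbp2, a guanylate-binding protein gene, was higher (3.47 ± 0.18), and its distance of 0.15 above the nearest FLAG-WT day did not pass. H2-K1, a class I histocompatibility gene that interferon also raises, went the other way, from 233 and 240.1 to 106 and 109 CPM (-1.14 ± 0.08). K19R expressed Parp14 at 58.9 and 48.0 CPM already on day 2.

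Among 22 imprinted genes 11 rose and 5 fell, with a median log2 change of 0.27. Of all genes tested 31.0% were higher and 26.6% lower, with a median of 0.08. The growth factor gene Igf2 stood at 0.558 and 1.28 against 2.79 and 3.01 CPM. Its place above the FLAG-WT course (edgeR adjusted p = 0.0331) was lost with library totals only (adjusted p = 0.0519), with DESeq2 (adjusted p = 0.138), and without FLAG-WT day 0 replicate 1 or 2, day 2 replicate 1 or day 6 replicate 1 or K19R day 10 replicate 1 or 2 (adjusted p = 0.0685 to 0.453). Peg3 (977 and 933 against 1882 and 2112 CPM) and Nnat (1.74) also lay above the course. H19, at 13750 and 13190 against 13190 and 14890 CPM, did not pass (0.06 ± 0.12), while the noncoding gene Meg3 fell from 5669 and 6526 to 2670 and 2016 CPM. Of 19 germ cell genes 11 were higher and 5 lower. Dazl, an RNA-binding protein gene, stood at 3.13 and 2.04 against 14.7 and 15.2 CPM, whereas the helicase gene Ddx4 stood at 25.2 and 26.9 against 4.87 and 5.09 CPM. The 11 higher were 7 without FLAG-WT day 6 replicate 2. Among 13 genes of DNA methylation 5 were higher and 4 lower, near the shares of all genes, and 9 and 2 with library totals only. Dnmt3l fell (-1.15 ± 0.11) and Tet2 rose (1.02).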
